A study of Homo sapiens with 17 samples.

Results

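The open chromatin regions described here lie in first introns. They are the ATAC-seq peaks whose deposited annotation names intron 1 of a transcript, 9298 of the 58372 peaks with counts (15.9%), and each is 501 bp long with no overlap between them. The cells were HepG2, an established human liver cancer line of hepatocyte-like character labelled wild type, grown for 4 days with 5-azacytidine at 0, 2 or 10 µM and with the medium replaced daily. ATAC-seq, in which the Tn5 transposase inserts adapters into accessible DNA, was available for 3 libraries without drug, 3 with the lower dose and 2 with the higher. RNA-seq was available for 3 libraries at each dose. No drug-free solvent arm other than the 0 µM group was described. The labels number replicates without saying that they were separate cultures, so p-values measure the spread between these libraries, which may be technical.

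5-Azacytidine is a cytidine analogue that is built into RNA and DNA and traps DNA methyltransferases on DNA, so that methylation is lost as cells divide. The first intron of a human gene is often its longest. It commonly holds enhancers, binding sites of transcription factors and the start sites of shorter transcripts, and the stretch next to the first exon continues the open chromatin of the promoter. In liver cells, factors such as HNF4A keep hepatocyte genes open, while AP-1, a dimer of FOS and JUN proteins, opens enhancers in growing or stressed cells. AP-1 binds the letters TGANTCA, which read the same on both strands.

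The libraries held between 2896671 and 7864321 counts in peaks for ATAC-seq and between 35553052 and 46430168 counts in genes for RNA-seq. Median counts per first-intron peak were between 36 and 91 in the 8 ATAC-seq libraries. Across all peaks, log2 CPM of the libraries correlated at 0.953 to 0.969 within 0 µM, 0.914 to 0.937 within 2 µM and 0.942 between the libraries at 10 µM, and at 0.291 to 0.356 between 0 and 10 µM. All 10 hepatocyte markers were at 1 count per 1000000 (CPM) or more at 0 µM and 9 of 10 at 10 µM, and their summed RNA was 37200 to 62300 CPM at 0 µM, 18000 to 30600 at 2 µM and 1390 to 2210 at 10 µM. Of the other cell types checked, 3 of 10 leukocyte markers passed 1 CPM at 0 µM and 2 at 10 µM, with sums of 2330 to 3450, 1130 to 1700 and 87.0 to 117 CPM at 0, 2 and 10 µM. At 0 µM nearly all of that was lysozyme (LYZ), and PTPRC had no reads at any dose. Epithelial markers were at 388 to 508 CPM at 0 µM, 498 to 982 at 2 µM and 495 to 1190 at 10 µM with 3 of 9 above 1 CPM, namely KRT19, EPCAM and SOX9, with CFTR and KRT5 without reads. Of these only KRT19 averaged more with dose, at 187, 533 and 842 CPM. EPCAM averaged 151, 156 and 61.8 CPM and SOX9 92.3, 55.3 and 38.4 CPM. Endothelial sums were 5.58 to 20.4, 17.1 to 23.2 and 3.38 to 7.53 CPM at the 3 doses (2 of 10 above 1 CPM at 0 µM, with CLEC4G, STAB2 and CLDN5 without reads). Stromal sums were 29.5 to 55.7, 27.9 to 50.9 and 11.1 to 15.5 CPM (2 of 10). The part of these markers in the results was not tested, and in bulk libraries fewer cells of a type and less signal per cell cannot be told apart.

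Sequence could be read for few of the peaks, those that overlap a RefSeq gene start. Of the 9298 peaks, 86 overlap a window from 250 bases before to 50 after a RefSeq gene start (GRCh38.p14), and 46 hold a whole window. These starts belong to genes or transcripts outside the annotation's promoter class, and 27 of the 89 windows touched belong to the host gene itself. At 10 µM against 0 µM, 9 of the 46 peaks holding a whole window were higher and 16 were lower, beside 29.9% and 27.6% of all peaks. The 250 bases before the start are given for the 5 with the largest rise and the 3 with the largest fall, because the AP-1 letters TGANTCA, printed in capitals, are in all 5 of the first and none of the second. The windows of the first 5 are chr7:28037266-28037515 (forward strand), chr10:59361649-59361898 (forward), chr5:135456206-135456455 (forward), chr2:168211200-168211449 (forward) and chr11:10303838-10304087 (reverse). Those of the last 3 are chr7:134374352-134374601 (reverse), chr16:89622005-89622254 (forward) and chr6:63516190-63516439 (forward).
JAZF1 peak, LOC105375208 start: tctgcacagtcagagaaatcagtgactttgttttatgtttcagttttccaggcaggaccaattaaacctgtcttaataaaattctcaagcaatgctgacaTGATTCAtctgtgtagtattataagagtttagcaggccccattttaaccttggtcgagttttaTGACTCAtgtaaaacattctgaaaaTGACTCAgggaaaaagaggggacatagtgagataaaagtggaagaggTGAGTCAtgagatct
LOC124902428 peak and start: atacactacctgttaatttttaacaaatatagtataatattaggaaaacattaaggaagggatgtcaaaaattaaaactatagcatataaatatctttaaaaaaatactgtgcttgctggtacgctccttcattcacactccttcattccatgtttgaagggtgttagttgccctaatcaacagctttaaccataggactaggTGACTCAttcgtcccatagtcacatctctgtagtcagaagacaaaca
LOC124901073 peak and start: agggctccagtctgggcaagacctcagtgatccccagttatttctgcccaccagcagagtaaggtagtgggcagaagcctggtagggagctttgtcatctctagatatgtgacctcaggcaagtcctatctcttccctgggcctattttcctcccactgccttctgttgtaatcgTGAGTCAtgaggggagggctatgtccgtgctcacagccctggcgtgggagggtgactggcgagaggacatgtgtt
STK39 peak, LOC124906088 start: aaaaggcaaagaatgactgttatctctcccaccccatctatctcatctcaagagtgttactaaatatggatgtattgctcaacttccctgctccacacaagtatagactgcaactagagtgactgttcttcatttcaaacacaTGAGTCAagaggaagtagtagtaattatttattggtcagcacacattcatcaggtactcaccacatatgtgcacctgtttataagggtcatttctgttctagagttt
SBF2 peak and start: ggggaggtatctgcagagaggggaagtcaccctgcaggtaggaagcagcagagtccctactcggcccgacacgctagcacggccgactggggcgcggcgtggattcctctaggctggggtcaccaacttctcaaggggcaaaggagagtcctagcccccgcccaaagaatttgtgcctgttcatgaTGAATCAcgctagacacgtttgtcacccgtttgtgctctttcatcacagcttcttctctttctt
LOC105375517 peak and start: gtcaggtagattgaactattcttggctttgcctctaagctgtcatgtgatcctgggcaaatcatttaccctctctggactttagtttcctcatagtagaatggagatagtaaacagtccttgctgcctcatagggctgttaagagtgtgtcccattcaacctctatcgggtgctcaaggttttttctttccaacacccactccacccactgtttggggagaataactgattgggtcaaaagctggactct
DPEP1 peak and start: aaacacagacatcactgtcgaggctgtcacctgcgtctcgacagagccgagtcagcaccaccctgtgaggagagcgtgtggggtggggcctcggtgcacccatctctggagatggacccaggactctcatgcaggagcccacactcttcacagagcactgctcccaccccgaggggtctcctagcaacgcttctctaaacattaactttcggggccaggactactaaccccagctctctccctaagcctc
LGSN peak, PTP4A1 start: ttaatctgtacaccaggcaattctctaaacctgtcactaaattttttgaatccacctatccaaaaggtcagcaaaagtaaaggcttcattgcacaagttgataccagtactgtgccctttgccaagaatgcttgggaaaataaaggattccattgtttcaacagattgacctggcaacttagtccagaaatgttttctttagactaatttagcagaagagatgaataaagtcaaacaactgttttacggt
The JAZF1 peak, in an intron of a gene for a zinc-finger protein, held 4 AP-1 matches, the farthest 150 bases before the start of LOC105375208, and the other 4 rising windows held 1 each. The match was 47 bases before the start at LOC124902428, 75 at LOC124901073, 107 at LOC124906088 and 64 at SBF2. CpG content differed among the rising windows, from 0 in the LOC124906088 stretch to 12 in that of SBF2.

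AP-1 letters went with the direction of the change in these windows. They were present in 8 of the 9 windows in peaks that rose at 10 µM (88.9%), in 1 of the 16 in peaks that fell (6.25%) and in 2 of the 21 in peaks that were not called (9.52%). At 2 µM against 0 µM all 5 windows in risen peaks held them, none of the 3 in fallen peaks, and 6 of the 38 in peaks not called. By comparison, TGANTCA is in 2707 of all 35116 RefSeq gene-start windows of the same length (7.71%). In later-intron peaks at 10 µM the letters were in 13 of 16 windows in risen and 0 of 7 in fallen peaks. In promoter peaks they were in 150 of 1264 (11.9%) risen, 20 of 604 (3.31%) fallen and 212 of 5996 (3.54%) uncalled ones, and the difference between the classes was not tested. Counts of windows are given as a description, because they share libraries and no test over windows was made.

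Of 3 other motifs searched on both strands in the same windows, GGGCGG, the GC box bound by SP1, was in 14 of 46 against 45.0% of all windows. TGACGTCA, the cAMP response element, and AGATAAG, a motif of the GATA factors, were in 0 of 46 against 1.85% and 2.68% of all windows. Matches that overlap one another were not removed. Windows in the risen peaks held a median of 4 CpG, against 7.5 in the fallen peaks and 16 in those not called.

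**Figure D1:**
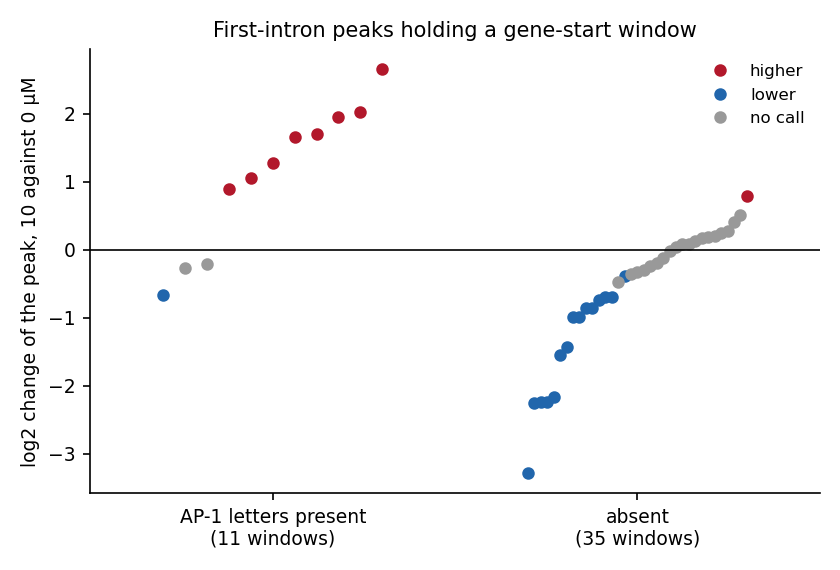
Change of ATAC-seq signal at 10 against 0 µM (log2, vertical axis) for the first-intron peaks that hold a whole RefSeq gene-start window, split by whether the window holds TGANTCA on the horizontal axis. Each point is 1 window's peak and the colour gives its call at an adjusted p of 0.05, and 8 of the 9 risen points lie among the 11 windows with the letters.

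Values behind these windows came from all 8 libraries. The peaks were chosen for the size of their change, so their values are a description. The JAZF1 peak had 2.18, 3.13 and 5.68 CPM at 0 µM, 6.19, 8.25 and 8.18 at 2 µM, with 26.3 and 19.8 at 10 µM. The doses did not overlap in that peak, which was higher by 2.65 on the log2 scale at 10 µM (SE 0.249, adjusted p = 6.82e-11). All adjusted p-values are from edgeR's quasi-likelihood test with Benjamini-Hochberg adjustment over all peaks or all genes tested. Each SE is the absolute log2 difference divided by the square root of that test's F statistic, so it is approximate. The SBF2 peak, at a start of a gene for a phosphatase-like protein that acts in membrane traffic, had 7.28, 11.1 and 12.5 CPM at 0 µM, 16.2, 21.3 and 17.9 at 2 µM, with 34.9 and 30.9 at 10 µM. It was higher in every drug library than in every 0 µM library, by a log2 of 1.65 at 10 µM (SE 0.183, adjusted p = 1.98e-09). By contrast the DPEP1 peak, at a start of the gene for the kidney and gut enzyme dipeptidase 1, had 22.8, 18.4 and 14.0 CPM at 0 µM, 11.7, 13.8 and 9.96 at 2 µM, with 4.02 and 3.48 at 10 µM. Its log2 difference at 10 µM was -2.25 (SE 0.255, adjusted p = 3.11e-09), and no library of the 10 µM group reached any at 0 µM. Not every AP-1 window moved: the PER2 peak, in the intron of a clock gene, had 45.8, 46.6 and 43.9 CPM at 0 µM against 39.7 and 38.9 at 10 µM (log2 -0.21, adjusted p = 0.238).

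RNA of the genes of the AP-1 and small MAF list, which are not all hosts, differed in part. Of the 24 genes of the AP-1 and small MAF list 22 passed the filter on low RNA counts, which a gene can pass through the dose where it is high. At 10 µM 10 of these were higher and 2 lower (beside 23.0% and 25.1% of all genes), the lower ones being ATF2 (log2 -0.56, adjusted p = 0.0223) and NFE2L2 (log2 -0.80, adjusted p = 0.0027). At 2 µM 1 was higher, BATF, and 1 lower, NFE2L2 (beside 3.22% and 1.06%). The NFE2L2 call at 2 µM (adjusted p = 0.0371) was lost with the 2 doses alone (0.139) and with total counts only (0.101). It was also lost without some single libraries (0.062 to 0.178). FOSL1 RNA averaged 2.42, 3.81 and 26.1 CPM at 0, 2 and 10 µM (log2 3.43 at 10 against 0 µM, SE 0.325, adjusted p = 3.84e-06). JUN averaged 46.5, 75 and 302 CPM (log2 2.70, SE 0.348, adjusted p = 4.42e-05), while FOS averaged 6.78, 2.56 and 6.18 CPM (log2 -0.13, adjusted p = 0.881). At 2 µM neither FOSL1 nor JUN passed the test (adjusted p = 0.277 and 0.287). Whether these levels bear on the windows was not tested.

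The comparison of doses asks how many first-intron peaks opened or closed with the drug. At 2 µM, 1683 of 9298 were higher than at 0 µM (18.1%, beside 15.5% of all peaks) and 681 were lower (7.32%, beside 7.30%). At 10 µM, 3199 were higher (34.4%, beside 29.9% of all peaks) and 2915 were lower (31.4%, beside 27.6%), which leaves 3184 without a call. Between 10 and 2 µM, 2587 were higher at 10 µM (27.8%, beside 27.5%) and 2883 lower (31.0%, beside 27.6%). Most first-intron peaks thus had no call at 2 µM, and the shares at each dose were near those of all peaks. The 2 µM counts moved with the libraries used: without replicate 2 of 0 µM 999 peaks were higher, and the lower count was 414 or 327 without replicate 2 or 3 of 2 µM and 1072 or 1067 without replicate 1 or 2 of 10 µM.

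Sizes were modest at 2 µM and large at 10 µM. Of the peaks called at 2 µM, 840 were higher and 79 lower by at least 1 on the log2 scale (a doubling), where 7.89% and 0.879% of all peaks were. At 10 µM these were 2120 higher and 1837 lower, beside 18.6% and 16.9% of all peaks, and between 10 and 2 µM 1419 and 1764, beside 13.2% and 16.6%. The median log2 difference over first-intron peaks was 0.097 at 2 µM and 0.055 at 10 µM against 0 µM, beside 0.020 and 0.050 over all peaks. At 10 µM the middle 90% of first-intron peaks ran from -2.35 to 2.86. Values are relative to the other peaks of a library, so a change of all peaks alike would not be seen.

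As a share of all counts in peaks, first introns held 13.5, 13.1 and 13.3% at 0 µM, 14.2, 13.8 and 13.6% at 2 µM, with 13.0 and 13.9% at 10 µM. All 3 shares at 2 µM lay above those at 0 µM, and the 10 µM libraries lay on either side of them. The 5 drug libraries exceeded the 3 at 0 µM by 0.358 percentage points (two-sided exact permutation p = 0.232, smallest possible 0.0179). That difference was 0.538 without replicate 1 of 10 µM (exact p = 0.0571), 0.238 without replicate 1 of 2 µM (exact p = 0.400) and -0.0346 for peaks at least 5000 bp from a transcript start (exact p = 0.893). At 2 µM the difference was 0.518 points with p = 0.10 by the exact test, the smallest that 3 against 3 allow. The log2 ratio of counts in first to later introns was -0.229 ± 0.0086 (SD, n = 3) at 0 µM and -0.234 ± 0.036 (SD, n = 5) with drug (difference -0.00514, exact permutation p = 0.821).

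Calls differed with the distance from a transcript start. In first-intron peaks under 1000 bp from the nearest transcript start (2242 peaks), 27.2% were higher and 13.7% lower at 10 µM. Farther out the higher and lower shares were 35.5% and 34.0% from 1000 to 5000 bp, 34.7% and 39.7% from 5000 to 20000 bp, and 43.3% and 37.3% from 20000 bp. Peaks in later introns had 28.4% higher and 27.1% lower under 1000 bp, and from 20000 bp 44.6% and 37.3%. Of all peaks 29.9% were higher and 27.6% lower at 10 µM. Promoter peaks had 20.5% and 14.9%, and peaks in 5' untranslated regions 27.8% and 15.8%, so a low share of losses was not particular to first introns. At 2 µM, 7.05% of first-intron peaks under 1000 bp were higher and 2.81% lower, where later-intron peaks had 19.5% and 5.58%. All peaks had 15.5% and 7.3% at 2 µM, and promoter peaks 7.04% and 5.01%. The count ratio of first to later introns under 1000 bp was 1.79, 1.77 and 1.76 at 0 µM, 1.67, 1.65 and 1.77 at 2 µM, with 1.92 and 1.84 at 10 µM on the log2 scale. Both 10 µM libraries were above all others, by 0.110 over 0 µM, where the exact permutation p of 0.10 is the smallest that 2 against 3 allow. That ratio by distance was added after seeing the data.

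**Figure D2:**
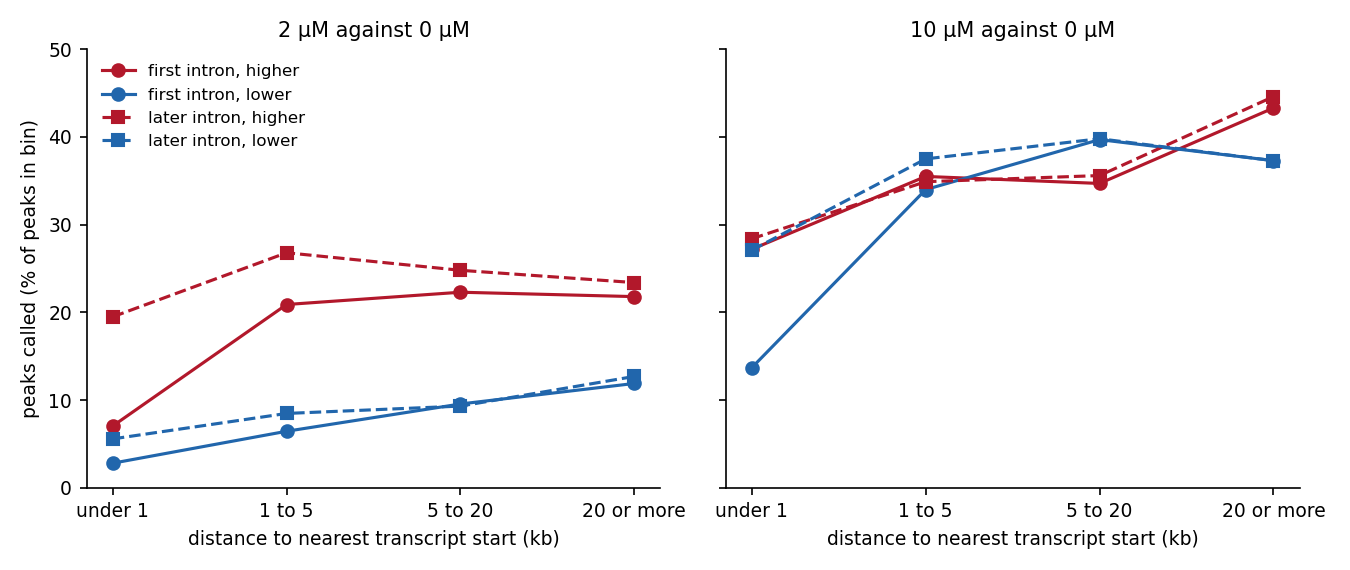
Peaks called higher (red) or lower (blue) as a percentage of the peaks in each bin of distance to the nearest transcript start (kb, horizontal axis), at 2 µM (left) and 10 µM (right) against 0 µM. Solid lines with circles are first introns and dashed lines with squares later introns; under 1 kb, 13.7% of first-intron peaks and 27.1% of later-intron peaks were lower at 10 µM.

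The regions with the largest gains were nearly closed at 0 µM. These peaks, and those of the next paragraphs up to the gene lists, were chosen for large changes between groups without overlap. Extreme levels and the lack of overlap between the groups compared follow in part from that choice, so the values are a description. In the first intron of WARS2, which encodes the mitochondrial tryptophanyl-tRNA synthetase, a peak at chr1:119112732-119113232 had 0.970, 0.680 and 0.947 CPM at 0 µM, 5.84, 3.78 and 3.41 at 2 µM, with 31.3 and 31.8 at 10 µM. The 3 doses did not overlap. It was higher by a log2 of 2.26 at 2 µM (SE 0.386, adjusted p = 5.99e-05) and 5.19 at 10 µM (SE 0.280, adjusted p = 1.00e-15). WARS2 RNA averaged 29.7 CPM at 0 µM and 37.5 at 10 µM (log2 0.34, adjusted p = 0.136).

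SPRR2E encodes a small proline-rich protein of the cornified envelope of skin. Its intron peak at chr1:153100200-153100700 had 0.243, 0.408 and 0.379 CPM at 0 µM (6 counts in all), 2.06, 2.06 and 2.86 at 2 µM, with 26.3 and 16.7 at 10 µM, again without overlap. The log2 difference at 10 µM was 5.85 (SE 0.368, adjusted p = 1.87e-14), yet SPRR2E had no RNA read in any of the 9 libraries. A count of 0 allows up to 3 counts, which is 0.0576 to 0.0937 CPM depending on the library, and covers counting error only. The SLC35F4 peak at chr14:57833254-57833754, in a gene of a solute carrier family, likewise had 0.485, 0.680 and 0.947 CPM at 0 µM and 32.7 and 20.4 at 10 µM (log2 5.19, SE 0.316, adjusted p = 1.03e-14). Its RNA was 0, 0 and 0.0256 CPM at 0 µM, 0, 0.0242 and 0 at 2 µM, with 0.287, 0.0576 and 0.283 at 10 µM. The 10 µM libraries lay above all others, but the gene was too low to be tested. For CCDC178, at chr18:33128516-33129016, the peak had 0.485, 0.136 and 0.568 CPM at 0 µM and 12.2 and 15.2 at 10 µM (log2 5.15, SE 0.396, adjusted p = 1.02e-12), with RNA at or under 0.0485 CPM. The fifth, in the non-coding gene LOC105377989 at chr6:127102236-127102736, was higher by 5.29 on the log2 scale (SE 0.332, adjusted p = 1.80e-14), from 1.21, 0.272 and 0.947 CPM to 32.2 and 25.7.

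Some regions opened between 2 and 10 µM. A peak in SGCD, which encodes the muscle membrane protein delta-sarcoglycan, had 10 counts in all at 0 µM, 3 at 2 µM and 154 at 10 µM (log2 4.39 at 10 against 0 µM, SE 0.381, adjusted p = 1.24e-11). In ANK3, the gene for ankyrin-G of the membrane skeleton, a peak had 1.21, 0.952 and 1.14 CPM at 0 µM, 0, 1.38 and 0.818 at 2 µM, with 11.9 and 13.7 at 10 µM. Its 2 µM libraries lay around those at 0 µM (log2 -0.49, adjusted p = 0.590) and its 10 µM libraries above all others (log2 4.03 against 2 µM, SE 0.394, adjusted p = 6.88e-10). The KCNIP4 peak, in a gene for a potassium-channel partner, had 6, 9 and 155 counts in all at the 3 doses (log2 4.16 at 10 against 2 µM, SE 0.404, adjusted p = 5.99e-10). LINC02310 and C10orf90 held the other 2 of the 5 largest gains of that comparison, with log2 differences of 4.15 and 4.09.

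Other regions were more open at 2 µM than at 10 µM. A peak in PARD3, a regulator of cell polarity, had 4.61, 2.45 and 5.11 CPM at 0 µM, 24.4, 23.7 and 21.4 at 2 µM, with 4.56 and 5.87 at 10 µM. The 2 µM libraries were far above both other groups, which overlapped. The log2 difference was 2.56 at 2 against 0 µM (SE 0.228, adjusted p = 3.38e-09) and -2.16 at 10 against 2 µM (SE 0.246, adjusted p = 9.92e-09). In MLLT1, which encodes the chromatin reader ENL, the peak at chr19:6272046-6272546 had 3.64, 0.680 and 0.947 CPM, then 10.3, 13.1 and 10.2, then 1.61 and 3.70. It had the largest rise at 2 µM of the peaks named by rule (log2 2.84, SE 0.369, adjusted p = 1.21e-06) and at 10 µM overlapped the 0 µM libraries (log2 0.68, adjusted p = 0.258). PPP1R13L, the gene for the p53 inhibitor iASPP, showed 3.88, 1.90 and 2.65 CPM, then 15.5, 19.3 and 15, then 4.56 and 4.78 (log2 2.61 at 2 µM, SE 0.256, adjusted p = 1.32e-08). In contrast the WASHC5 peak, in a gene of the endosomal WASH complex, had 1.7, 1.5 and 1.7 CPM at 0 µM, 11.3, 11 and 9 at 2 µM, with 9.93 and 13.7 at 10 µM, so that both drug groups lay above 0 µM and overlapped each other.

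The largest losses, chosen by the same rule, ran the other way, down to a few counts at 10 µM. The NALCN-AS1 peak at chr13:100734108-100734608, in a gene antisense to a sodium leak channel, had 15.8, 17.7 and 14.8 CPM at 0 µM, 8.93, 5.50 and 5.05 at 2 µM, with 0.268 and 0.652 at 10 µM. Each dose lay under the one before, with log2 differences from 0 µM of -1.39 (SE 0.228, adjusted p = 3.51e-05) and -5.20 (SE 0.404, adjusted p = 1.32e-12). The CCDC146 peak had 11.2, 12 and 15.2 CPM at 0 µM and 0.402 and 0.435 at 10 µM (log2 -4.87, SE 0.423, adjusted p = 1.30e-11). TREH, the gene for the sugar enzyme trehalase, had 27.9, 18.8 and 16.1 CPM at 0 µM, 18.2, 9.97 and 12.1 at 2 µM, with 0.805 and 0.652 at 10 µM. There the 0 and 2 µM libraries overlapped and the 10 µM libraries were far lower (log2 -4.74, SE 0.376, adjusted p = 1.97e-12). MRPL1, of the mitochondrial ribosome, and MAGI1, a scaffold of cell junctions, followed with log2 differences of -4.46 (SE 0.327, adjusted p = 3.77e-13) and -4.45 (SE 0.347, adjusted p = 1.40e-12). TREH RNA, low throughout, was lower at 10 µM (0.625, 0.231 and 1.56 CPM against 0, 0.0576 and 0.0202, log2 -4.74, adjusted p = 0.00205). RNA of CCDC146, MRPL1 and MAGI1 did not pass the test (log2 -1.33, adjusted p = 0.097, -0.53, adjusted p = 0.0935, and 0.42, adjusted p = 0.118), and that of NALCN-AS1 was too low to be tested.

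At 2 µM already, 5 peaks named by rule had large losses. In PRKAR1A, a regulatory subunit of protein kinase A, the peak at chr17:68482533-68483033 went from 13.1, 13.1 and 11.9 CPM to 3.09, 1.38 and 1.77 at 2 µM, with 0.537 and 1.30 at 10 µM. The drug groups were both under the 0 µM libraries (log2 -2.66 at 2 µM, SE 0.295, adjusted p = 9.42e-08). MYO1E, a class I myosin, SCD5, a stearoyl-CoA desaturase, TTR, the thyroid hormone carrier transthyretin, and SSTR2, a somatostatin receptor, had peaks with log2 differences of -1.95, -1.81, -1.63 and -1.53 at 2 µM, with adjusted p between 7.05e-07 and 5.47e-05. The TTR peak lies 3976 bp upstream of the nearest TTR start. For TTR the peak had 9.70, 8.84 and 9.47 CPM at 0 µM, 3.78, 2.75 and 2.73 at 2 µM, with 1.61 and 0.870 at 10 µM. Its RNA was 123, 49.3 and 151 CPM at 0 µM and 0.383, 0.25 and 0.364 CPM at 10 µM, without overlap (log2 -8.34, SE 0.511, adjusted p = 2.08e-07).

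**Figure D3:**
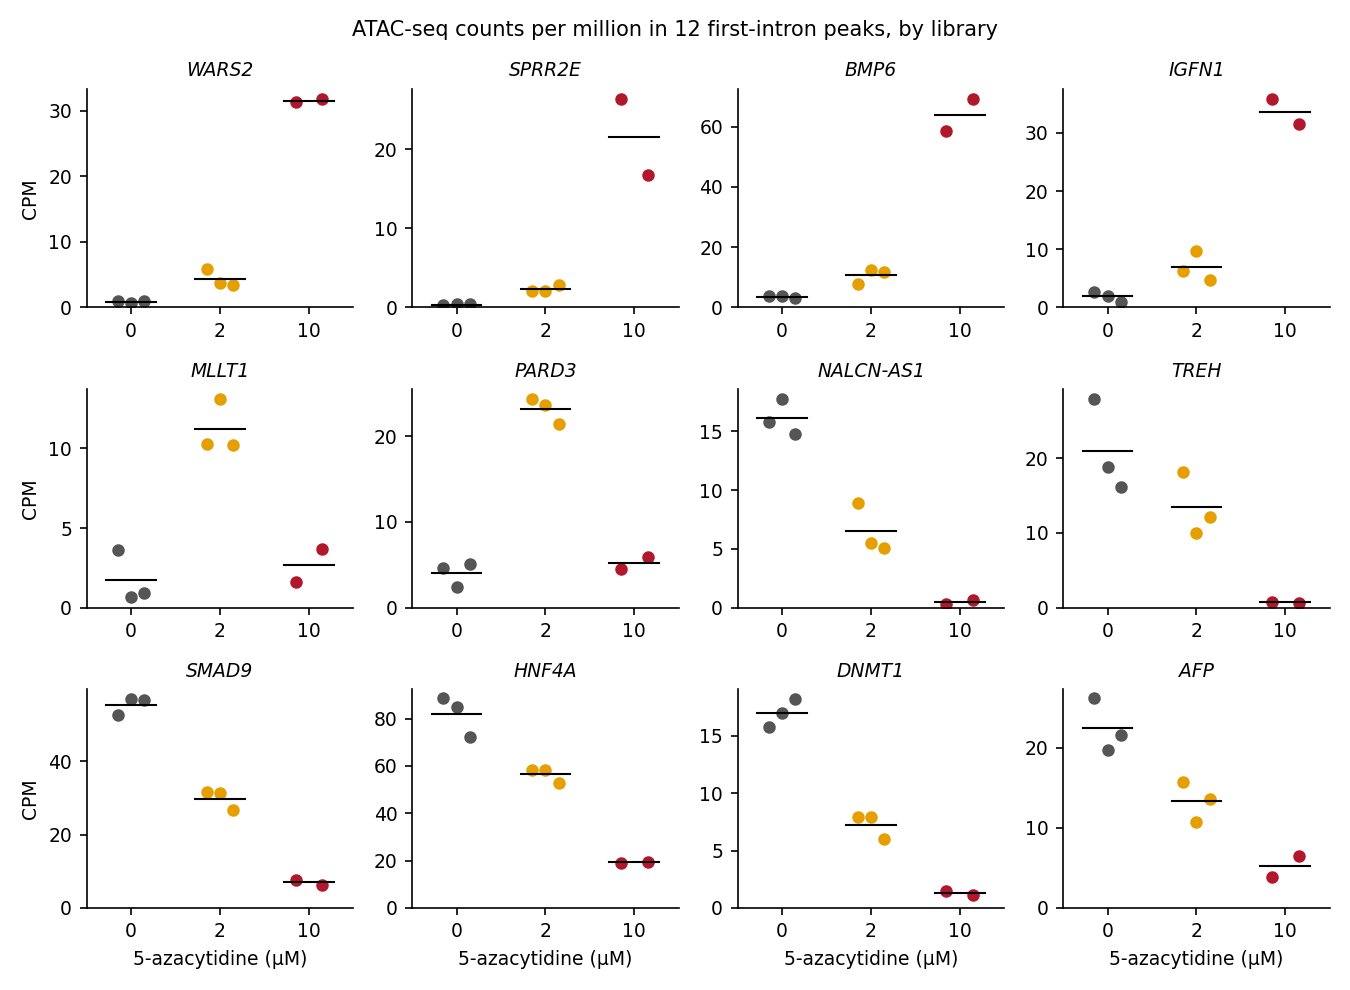
ATAC-seq signal (CPM, vertical axis from 0, a scale of its own in each panel) in 12 first-intron peaks at 0, 2 and 10 µM (horizontal axis); points are libraries and black lines are means. WARS2, SPRR2E, BMP6 and IGFN1 were highest at 10 µM, MLLT1 and PARD3 at 2 µM, and the other 6 fell with dose, with the NALCN-AS1 peak at 0.268 and 0.652 CPM at 10 µM.

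Genes of liver function lost first-intron accessibility in part. The gene lists can also be set beside all first-intron peaks, of which 34.4% were higher and 31.4% lower at 10 µM. Among 14 peaks in 11 genes of secreted liver proteins, 0 were higher and 8 lower at 10 µM (0% and 57.1%, beside 29.9% and 27.6% of all peaks), with a median log2 of -0.93 beside 0.050 over all peaks. The RNA of 11 of 11 hosts was lower, beside 25.1% of all genes. The AFP peak at chr4:73432538-73433038, in the gene for alpha-fetoprotein of fetal liver, had 26.2, 19.8 and 21.6 CPM at 0 µM, 15.8, 10.7 and 13.6 at 2 µM, with 3.89 and 6.52 at 10 µM. No groups overlapped, and the log2 differences from 0 µM were -0.73 (SE 0.185, adjusted p = 0.00403) and -2.16 (SE 0.235, adjusted p = 1.38e-09). AFP RNA was 7130, 5560 and 6490 CPM at 0 µM, 1360, 1650 and 2000 at 2 µM, with 76.8, 92.0 and 51.2 at 10 µM (log2 -6.45 at 10 µM, SE 0.291, adjusted p = 6.33e-08). Peaks in TF, for the iron carrier transferrin, and CP, for the copper protein ceruloplasmin, changed by a log2 of -2.81 (SE 0.258, adjusted p = 4.05e-11) and -2.93 (SE 0.305, adjusted p = 5.72e-10) at 10 µM. The TF peak lies in a transcript with 1 intron and is nearest to TOPBP1, whose start is 7929 bp away. The CP peak lies 5347 bp upstream of the nearest CP start.

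Of 15 peaks in 8 genes of liver transcription factors, 4 were higher and 5 lower at 10 µM (26.7% and 33.3%, near the 29.9% and 27.6% of all peaks), with a median log2 of -0.06. RNA of 6 of the 8 genes was lower and of 0 higher, beside 25.1% and 23.0% of all genes. The HNF4A peak at chr20:44394427-44394927, 779 bp from the start of HNF4A-AS1, had 88.8, 84.8 and 72.0 CPM at 0 µM, 58.1, 58.4 and 52.9 at 2 µM, with 19.0 and 19.4 at 10 µM. Each dose lay under the one before (log2 -0.54 at 2 µM, SE 0.127, adjusted p = 0.00205, and -2.09 at 10 µM, SE 0.158, adjusted p = 7.08e-13). HNF4A RNA was 312, 280 and 270 CPM at 0 µM, 261, 197 and 324 at 2 µM, with 68.8, 95.6 and 77.4 at 10 µM, so only the 10 µM libraries stood apart (log2 -1.83, SE 0.214, adjusted p = 2.00e-05). A peak in HNF4G, a related factor, rose from 2.18, 1.63 and 2.46 CPM to 14.1 and 13.0 (log2 2.72, SE 0.281, adjusted p = 4.72e-10), while its RNA averaged 32.2 CPM at 0 µM and 16.4 at 10 µM (log2 -0.97, adjusted p = 0.011, and 0.0579 or 0.0576 without RNA replicate 1 or 3 of 10 µM).

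Lipid and bile acid genes had 56 peaks in 21 genes, of which 19 were higher and 22 lower at 10 µM (33.9% and 39.3%, beside 29.9% and 27.6% of all peaks), with a median log2 of -0.14. RNA of 16 of the 21 was lower and of 2 higher, beside 25.1% and 23.0% of all genes. One of the exceptions was ACSL5, which activates fatty acids. Its peak had 10.9, 22.6 and 18.2 CPM at 0 µM, 29.2, 35.4 and 32.7 at 2 µM, with 79.1 and 102 at 10 µM, without overlap (log2 2.34 at 10 µM, SE 0.178, adjusted p = 7.97e-13). ACSL5 RNA rose from 153, 134 and 241 CPM to 788, 700 and 738 at 10 µM (log2 2.07, SE 0.259, adjusted p = 3.43e-05).

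Of 41 peaks in 10 Wnt genes, 9 were higher and 22 lower at 10 µM (22.0% and 53.7%, beside 29.9% and 27.6% of all peaks), with a median log2 of -0.81. The LGR4 peak, in the R-spondin receptor gene, went from 30.3, 27.3 and 28.2 CPM to 3.09 and 3.91 (log2 -3.05, SE 0.216, adjusted p = 1.95e-13). For ZNRF3, the ligase that removes Wnt receptors, the peak went from 41.2, 25.7 and 28.2 CPM to 3.62 and 5.65 (log2 -2.80, SE 0.237, adjusted p = 7.56e-12). ZNRF3 RNA was lower too, at 188, 171 and 178 CPM against 63.6, 62.2 and 67.1 (log2 -1.48, SE 0.190, adjusted p = 4.33e-05).

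TGF-beta and BMP genes had 12 of 41 peaks higher and 16 lower at 10 µM (29.3% and 39.0%, beside 29.9% and 27.6% of all peaks). The BMP6 peak at chr6:7730875-7731375, in the gene for the BMP ligand that raises hepcidin in liver, had 3.64, 3.94 and 3.22 CPM at 0 µM, 7.9, 12.4 and 11.7 at 2 µM, with 58.4 and 69.2 at 10 µM. The doses did not overlap and the log2 differences were 1.58 (SE 0.232, adjusted p = 7.57e-06) and 4.12 (SE 0.194, adjusted p = 1.25e-16). BMP6 RNA was 0.437, 0.180 and 0.537 CPM at 0 µM and 45.9, 30.3 and 30.6 at 10 µM (log2 6.53, SE 0.579, adjusted p = 2.40e-06). At 2 µM it was 2.26, 3.25 and 0.639 CPM, above all 3 at 0 µM (adjusted p = 0.0245, and 0.133 with the replicate block over 0 and 2 µM). In SMAD9, a receptor-regulated SMAD of that pathway, the peak fell from 52.6, 57.1 and 56.8 CPM to 31.6, 31.3 and 26.6 at 2 µM, with 7.65 and 6.31 at 10 µM (log2 -2.97 at 10 µM, SE 0.183, adjusted p = 1.25e-14). SMAD9 RNA fell as well at 10 µM (log2 -2.51, SE 0.334, adjusted p = 5.60e-05).

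Receptor tyrosine kinase genes had 23 of 61 peaks higher and 24 lower at 10 µM (37.7% and 39.3%, beside 29.9% and 27.6% of all peaks). The growth factor receptor gene EGFR alone held 14, of which 6 were higher and 7 lower. One at chr7:55132703-55133203 had 15, 20.9 and 19.9 CPM at 0 µM, 28.2, 36.8 and 33.8 at 2 µM, with 72.7 and 83.3 at 10 µM (log2 2.04 at 10 µM, SE 0.155, adjusted p = 7.97e-13). EGFR RNA was 34.5, 36.9 and 97.9 CPM at 0 µM and 255, 205 and 222 at 10 µM, without overlap (log2 2.01, SE 0.351, adjusted p = 0.00046). Actin, adhesion and YAP/TEAD genes had 37 of 101 peaks higher and 36 lower (36.6% and 35.6%, beside 29.9% and 27.6% of all peaks), near the 34.4% and 31.4% of first-intron peaks. Among them a peak in MYH9, the non-muscle myosin heavy chain, rose from 3.15, 1.63 and 3.03 CPM to 20.1 and 28.7 (log2 3.27, SE 0.254, adjusted p = 1.33e-12), and one in TNS3, a tensin of focal adhesions, fell from 58.0, 57.2 and 57.4 CPM to 12.3 and 9.57 (log2 -2.36, SE 0.169, adjusted p = 2.46e-13).

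In the AP-1 and small MAF genes, 10 of 20 peaks were higher and 4 lower at 10 µM (beside 29.9% and 27.6% of all peaks), with a median log2 of 0.58. The MAFK peak, in a gene for a small MAF partner, had 8.73, 10.2 and 8.33 CPM at 0 µM, 22.0, 24.4 and 24.0 at 2 µM, with 49.0 and 56.8 at 10 µM, without overlap (log2 2.52 at 10 µM, SE 0.164, adjusted p = 3.81e-14). In NFE2L2, the gene for the oxidative stress factor NRF2, a peak fell from 15.5, 13.5 and 13.3 CPM to 0.805 and 1.74 (log2 -3.55, SE 0.330, adjusted p = 5.25e-11). Of 17 peaks in p53 target genes 8 were higher and 2 lower (47.1% and 11.8%, beside 29.9% and 27.6% of all peaks). One in AEN, an apoptosis nuclease, was at 4.37, 7.75 and 10.8 CPM at 0 µM and 33.7 and 32.8 at 10 µM (log2 2.09, SE 0.205, adjusted p = 1.66e-10). AEN RNA rose from 206, 213 and 133 CPM to 355, 377 and 343 (log2 0.96, SE 0.213, adjusted p = 0.00237).

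Genes of the DNA methyltransferases, the targets of the drug, were themselves hosts. DNMT1 encodes the methyltransferase that maintains methylation, and its one peak, chr19:10191297-10191797, had 15.8, 17 and 18.2 CPM at 0 µM, 7.90, 7.91 and 6 at 2 µM, with 1.48 and 1.09 at 10 µM. It fell at each dose (log2 -1.28, SE 0.206, adjusted p = 2.66e-05, and -3.66, SE 0.300, adjusted p = 3.76e-12). DNMT1 RNA was 143, 121 and 97.0 CPM at 0 µM and 85.6, 88.1 and 87.2 at 10 µM, which missed the threshold (log2 -0.47, SE 0.185, adjusted p = 0.0525). DNMT3B RNA was lower, at 37.2, 30.1 and 21.7 CPM against 9.97, 11.6 and 9.58 (log2 -1.51, SE 0.225, adjusted p = 0.000134). DNMT3A RNA was 95.9, 102 and 76.4 CPM against 59.3, 70.8 and 60.7 (log2 -0.52, SE 0.190, adjusted p = 0.0368), a call lost under DESeq2 (adjusted p = 0.0577), without any 1 of the 3 libraries at 10 µM (0.0587 to 0.147) and under other settings up to 0.299. Of the 5 peaks in DNMT3B, a de novo methyltransferase, 3 were lower at 10 µM and 2 not called. The peak 4495 bp from its start went from 14.8, 16.3 and 12.9 CPM to 3.62 and 3.26 (log2 -2.08, SE 0.242, adjusted p = 5.58e-09), while the peak 378 bp from the start had 18.9, 15.4 and 12.9 CPM against 20 and 18.5 (log2 0.31, adjusted p = 0.150). One of the lower 3, with a log2 of -0.49 (adjusted p = 0.0219), lost its call without replicate 2 of 0 µM or replicate 2 of 10 µM. Of 2 peaks in DNMT3A, the other de novo enzyme, one was lower at 10 µM (log2 -0.75, SE 0.171, adjusted p = 0.000333) and one was not called (log2 -0.10, adjusted p = 0.703). Over the whole DNA methylation list, 3 of 16 peaks were higher and 6 lower (18.8% and 37.5%, beside 29.9% and 27.6% of all peaks). RNA of 4 of the 8 hosts was lower and of 0 higher, beside 25.1% and 23.0% of all genes.

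The further lists are read beside the same 29.9% and 27.6% of all peaks at 10 µM. In H3K9 and polycomb silencing genes 5 of 11 peaks were higher and 2 lower (45.5% and 18.2%), with PHC2 of polycomb complex 1 at a log2 of 3.53 (SE 0.374, adjusted p = 8.15e-10) and JARID2 of polycomb complex 2 at -2.58 (SE 0.304, adjusted p = 6.87e-09). Genes often methylated in liver cancer had 4 of 12 higher and 5 lower (33.3% and 41.7%). MHC, interferon and NF-kappaB genes had 6 of 25 higher and 8 lower (24% and 32%), near the shares of all peaks, with IL1RAP, a part of the interleukin 1 receptor, at a log2 of -3.78 (SE 0.355, adjusted p = 6.55e-11). SQOR, a mitochondrial enzyme that oxidises sulfide, had 4 peaks, of which the one 4794 bp from the nearest start went from 5.34, 3.40 and 5.49 CPM to 19.0 and 24.8 (log2 2.23, SE 0.233, adjusted p = 5.84e-10). The others had log2 differences of 0.79 (called), 0.42 (a call lost under DESeq2 and other settings) and 0.20 (not called). SQOR RNA was higher at 2 µM (log2 1.28, adjusted p = 0.00698), where the peak with the largest rise was not called (adjusted p = 0.0763), and at 10 µM (log2 1.02, adjusted p = 0.00209). BCL2A1 and UHRF1 held no first-intron peak.

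The single peak in a germline gene was in TDRD9, a helicase of the piRNA pathway. It had 4.37, 5.30 and 5.49 CPM at 0 µM, 4.47, 8.59 and 7.37 at 2 µM, with 14.4 and 10.7 at 10 µM, and only the 10 µM libraries stood apart (log2 1.31, SE 0.248, adjusted p = 2.73e-05). TDRD9 RNA had 0 counts in the 3 libraries at 0 µM and was 4.59, 7.22 and 3 CPM at 2 µM, with 3.01, 2.69 and 3.82 at 10 µM. Against 3 counts over the group at 0 µM, that is at least 181-fold higher at 2 µM and at least 116-fold at 10 µM.

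Several peaks could share 1 host, and the host's peaks did not always move together. The 8793 peaks with a named host lay in 4420 genes, of which 2647 held 1, 839 held 2 and 934 held 3 or more. Of those 934 genes, 469 had peaks called both ways at 10 µM against 0 µM, 220 only higher, 228 only lower and 17 none. Both calls were frequent among single peaks, at 34.4% higher and 31.4% lower in first introns (29.9% and 27.6% of all peaks). Whether the mixing within genes differed from what these shares give was not tested. CMIP, a gene for a signalling adaptor, held the most with 33, over 159 kb, of which 8 were higher and 18 lower, from -3.26 to 2.18 on the log2 scale. IQSEC1, an exchange factor for the GTPase ARF6, had 4 of 24 higher and 17 lower. In HS6ST1, which sulfates heparan sulfate, 0 of 21 were higher and 14 lower. At 2 µM 8 of the 21 were higher and 2 lower, beside 15.5% and 7.3% of all peaks. One of the 7 without a call changed sign with the library used: without replicate 1 of 10 µM its log2 was 0.63, and without replicate 2 it was -0.48. HS6ST1 RNA was 324, 313 and 285 CPM at 0 µM and 65.0, 79.7 and 74.7 at 10 µM (log2 -2.07, SE 0.196, adjusted p = 3.77e-06), and that of IQSEC1 was lower as well (log2 -1.99, SE 0.231, adjusted p = 1.94e-05). For CMIP it was 45.8, 43.8 and 101 CPM at 0 µM and 42.3, 35.5 and 37.5 at 10 µM (log2 -0.73, adjusted p = 0.0501).

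NTSR1, the gene for a neurotensin receptor, was chosen after its values were seen, because all 14 of its peaks were higher at 10 µM than at 0 µM and than at 2 µM. Summed over the 14, the signal was 98.7, 67.8 and 82.4 CPM at 0 µM, 147, 165 and 151 at 2 µM, with 513 and 515 at 10 µM. Each dose lay above the one before, and single peaks had log2 differences at 10 µM between 1.29 and 3.6 over 43.5 kb. At 2 µM 8 of the 14 were higher and 0 lower, beside 15.5% and 7.3% of all peaks. NTSR1 RNA was 0.187, 0.900 and 1.20 CPM at 0 µM, 8.76, 5.96 and 2.66 at 2 µM, with 15.4, 14.5 and 15.2 at 10 µM (log2 4.27 at 10 µM, SE 0.548, adjusted p = 4.20e-05). In 54 of the 934 genes with 3 or more first-intron peaks, all were higher at 10 µM, and in 30 all were lower.

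**Figure D4:**
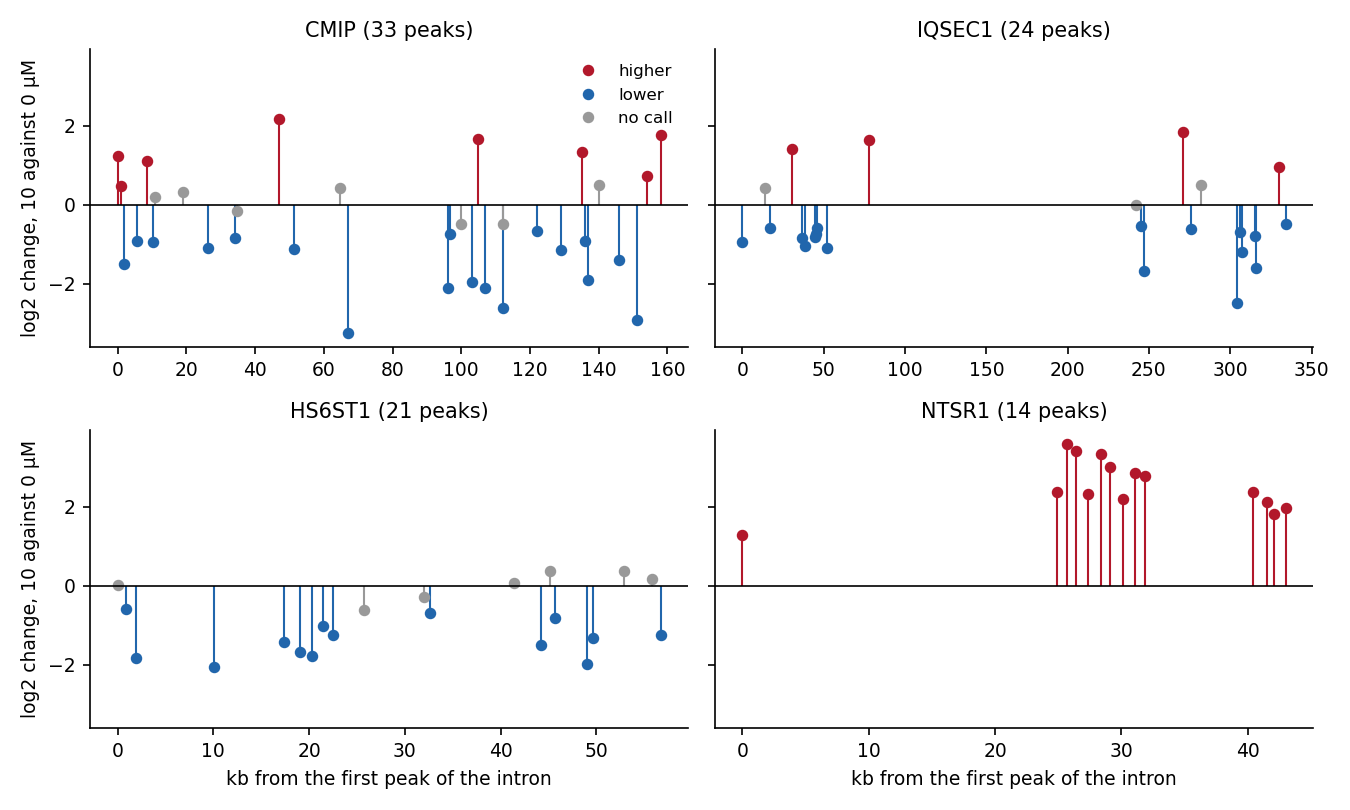
Change of each first-intron peak at 10 against 0 µM (log2, vertical axis) by its place in kb from the first such peak of its gene (horizontal axis), for the 3 genes with the most peaks and for NTSR1. Red, blue and grey mark peaks called higher, lower or not called, and all 14 NTSR1 peaks are above 0 while CMIP and IQSEC1 hold both signs.

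RNA of the host genes was then set beside the peaks, from separate libraries. Of 3672 hosts that passed the filter on low RNA counts, 934 were higher at 10 µM (25.4%, beside 23.0% of all 18999 genes tested) and 1152 lower (31.4%, beside 25.1%). At 2 µM 111 were higher (3.02%, beside 3.22%) and 97 lower (2.64%, beside 1.06%), and between 10 and 2 µM 792 were higher at 10 µM (21.6%, beside 16.8%) and 921 lower (25.1%, beside 21.6%). The 2 µM counts rest on single libraries: the higher count was 62 without replicate 1 and 193 without replicate 3 of 0 µM, and 47, 49 and 183 without replicates 1, 2 and 3 of 2 µM. The lower count was 51 without replicate 1 of 0 µM, 15, 18 and 163 without replicates 1, 2 and 3 of 2 µM, and 51, 62 and 49 without replicates 1, 2 and 3 of 10 µM.

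Host RNA and peaks went the same way at 10 µM in part of the genes. In the 1144 hosts whose called peaks were all higher, RNA was higher in 39.9% and lower in 17.3%, with a median log2 of 0.37. In the 900 whose called peaks were all lower, 13.4% were higher and 47.4% lower, with a median of -0.60. Hosts with peaks called both ways had 24.8% and 33.1%, and those with no call 20.4% and 32.0%. Across 3672 hosts the mean peak change and the RNA change correlated at a Pearson r of 0.349 and a Spearman rho of 0.341, given as a description, since genes are not independent replicates. RNA passed the test in neither direction in 489 of the 1144 hosts with only higher peaks and 352 of the 900 with only lower peaks.

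**Figure D5:**
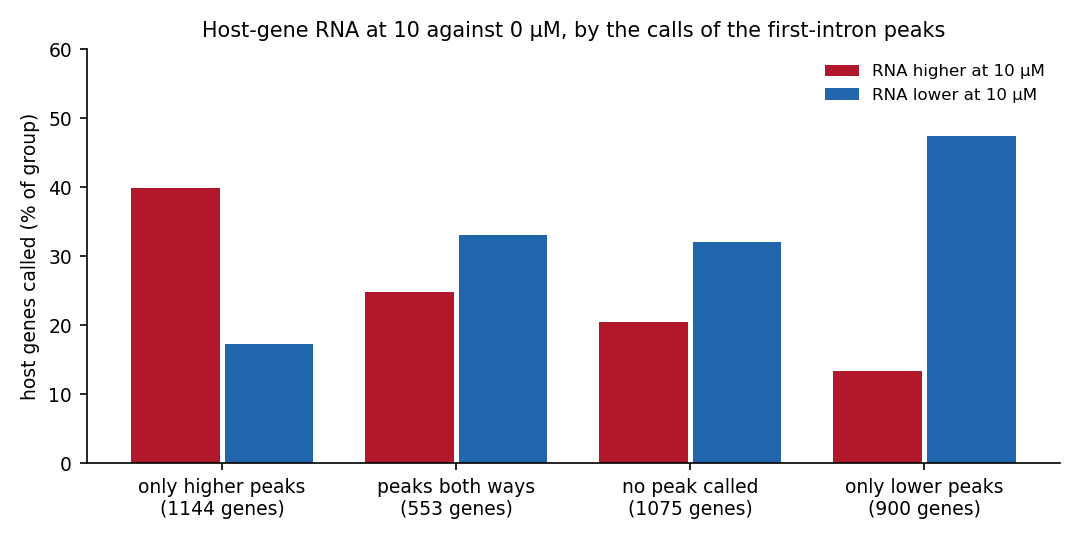
Host genes with RNA called higher (red) or lower (blue) at 10 against 0 µM, as a percentage of each group of hosts (vertical axis), by the calls of their first-intron peaks in the same comparison (horizontal axis). RNA was higher in 39.9% of hosts with only higher peaks and lower in 47.4% of those with only lower peaks.

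Peak and RNA changed together in several genes that were named for this agreement. The agreement therefore follows from the choice, and the values are a description. IGFN1, a gene best known from skeletal muscle, had a peak at 2.67, 2.04 and 0.947 CPM at 0 µM, 6.19, 9.63 and 4.77 at 2 µM, with 35.8 and 31.5 at 10 µM, without overlap (log2 4.17 at 10 µM, SE 0.265, adjusted p = 2.24e-14). IGFN1 RNA was 0.375, 0.643 and 1.05 CPM at 0 µM, 8.38, 5.96 and 2.47 at 2 µM, with 36.5, 31.9 and 23.7 at 10 µM (log2 3 at 2 µM, SE 0.454, adjusted p = 0.00319, and 5.46 at 10 µM, SE 0.489, adjusted p = 2.62e-06). For SLFN5, an interferon-inducible Schlafen gene, the peak was up by 2.56 at 2 µM on the log2 scale (SE 0.419, adjusted p = 3.45e-05) and RNA by 2.74 (SE 0.371, adjusted p = 0.00171). RCN1, an endoplasmic reticulum calcium-binding protein, had a peak higher by 2.04 (SE 0.350, adjusted p = 6.24e-05) and RNA by 1.51 (SE 0.193, adjusted p = 0.00112) at 2 µM.

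Peak and RNA also fell together in other genes, named for the same agreement. KLB, the co-receptor of FGF19 and FGF21, had a peak at 16.0, 15.4 and 19.7 CPM at 0 µM against 0.805 and 2.83 at 10 µM (log2 -3.39, SE 0.325, adjusted p = 1.08e-10) and RNA lower by 6.04 on the log2 scale (log2 -6.04, SE 0.334, adjusted p = 1.15e-07). In PPM1H, a protein phosphatase gene, both fell at 2 µM already (peak log2 -0.63, SE 0.161, adjusted p = 0.00439, and RNA log2 -1.41, SE 0.246, adjusted p = 0.00700).

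In other genes the peak and the RNA went opposite ways. NLRC5, the transactivator of MHC class I, had a peak at 3.15, 3.81 and 3.98 CPM at 0 µM, 7.22, 10.3 and 6.68 at 2 µM, with 24.4 and 22.2 at 10 µM (log2 2.66 at 10 µM, SE 0.225, adjusted p = 7.59e-12). NLRC5 RNA was 13, 12 and 28.1 CPM at 0 µM and 3.61, 4.22 and 2.51 at 10 µM (log2 -2.36, SE 0.437, adjusted p = 0.000693). SFRP4, a secreted Wnt antagonist, had a peak 47996 bp from its start that rose from 0.485, 0.272 and 0.758 CPM to 9.12 and 11.3 (log2 4.33, SE 0.410, adjusted p = 7.80e-11). SFRP4 RNA fell from 4.40, 3.08 and 4.27 CPM to 0.0956, 0.269 and 0.101 (log2 -4.61, SE 0.463, adjusted p = 6.03e-06).

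Among hosts split by RNA at 0 µM, first introns of silent genes had the highest share of gains. Of 921 peaks in 639 hosts under 0.1 CPM of RNA at 0 µM, 51.0% were higher and 28.3% lower at 10 µM, with a median log2 of 0.52. All peaks had 29.9% and 27.6%, and first-intron peaks 34.4% and 31.4%, so the lower share was near that of all peaks. Hosts with more RNA at 0 µM had 30.7% to 38.2% higher in the 4 bins above. The 470 higher peaks lay in 365 silent hosts, and 282 of these hosts remained under 0.1 CPM at 10 µM. Only 39 of the 365 passed the filter on RNA counts, and RNA rose in 36 of them, but a silent host passes that filter only through the groups where it is high. Of the 216 silent hosts of lower peaks, 179 likewise remained under 0.1 CPM at 10 µM. The filter was passed by 21 of the 216, and RNA was higher in 11 of these and lower in 0. SPRR2E, CCDC178 and SGCD, with the large gains described above, are hosts that remained under 0.1 CPM.

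Promoters of the same genes gave another measure. Of the first-intron peaks, 6936 had a host with a promoter peak. Among the 1495 such hosts of peaks higher at 10 µM, 34.1% had a promoter peak that was higher and 21.7% one that was lower. In 50.2% no promoter peak was called. Among the 1303 hosts of lower peaks these were 27.3%, 32.2% and 47.2%, beside 27.3%, 19.6% and 56.3% of all 12397 genes with promoter peaks. A gene with several promoter peaks can count as both higher and lower.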

How the data were processed

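ATAC-seq and RNA-seq libraries of HepG2 cells were used as deposited by the authors: whole-number counts per consensus peak, with an annotation and a distance to the nearest transcript start in the authors' deposited table, and whole-number counts per gene. Per the submitters' processing notes, the build was hg38 and the tools included DiffBind 3.12.0, HISAT2 2.2.1, HTSeq 2.0.4 and DESeq2 1.42.1. The ATAC-seq aligner and peak caller are unnamed there, and are not given in the sources used here. Deposited normalized counts and peak intervals were not used here. Deposited counts ranged from 2896671 to 7864321 per ATAC-seq library and from 35553052 to 46430168 per RNA-seq library.

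Counts were fitted over all peaks, or all genes passing edgeR's filter on low counts, with edgeR 4.0.16 (R 4.3.3): TMM scaling, a quasi-likelihood test of all 3 doses together and Benjamini-Hochberg adjustment, called at 0.05. CPM are TMM-scaled. Shares were compared by exact permutation over all arrangements of the libraries (Python 3.11.15). Hosts are the genes in the annotation's parentheses, which are also the nearest gene for 7720 peaks (83.0%); 505 peaks name a transcript without a gene name, and 8642 matched a gene with RNA counts. The RNA kit was stranded, but whether counting used strand is not given, so overlapping genes may share reads.

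Named peaks were, per comparison, the 5 largest rises and falls that passed the test, had groups without overlap and averaged 5 CPM or more where they were higher; up to 2 per gene list by smallest adjusted p; those in BCL2A1, SQOR, DNMT1, DNMT3A, DNMT3B and UHRF1; those in the 3 hosts with the most peaks; and up to 5 per direction called the same way as the host's RNA. Peaks at gene starts were added for their sequence. The members and the 14 gene lists were chosen with earlier results of these data known. RNA libraries with the same replicate number at 0 and 2 µM deviated together (r of 0.194, 0.264 and 0.283), so the numbers may pair them; the other groups gave no such pairing. Alternatives were another scaling, DESeq2 1.42.0, other filters, fits of 2 doses only, the replicate block and leaving out each library.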

Additional observations from a re-analysis of the deposited data

How the results depend on the processing

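Counts of first-intron peaks at 10 µM against 0 µM moved by less than 1.5 times under another scaling, DESeq2, other filters, 2-dose fits and each left-out library (2837 to 3206 higher and 2479 to 3085 lower without 1 library), and by construction they were smaller for peaks at least 5000 bp from a transcript start (1578 and 1637) or with a log2 change of at least 1 (2120 and 1837). The same held for 10 against 2 µM (2307 to 2593 and 2212 to 2978 without 1 library, 1364 and 1649 from 5000 bp, 1419 and 1764 by size). At 2 against 0 µM the count of higher peaks was 1074 by DESeq2, 929 from 5000 bp, 840 by size and 999 to 1706 without 1 library. The count of lower peaks was 446 by DESeq2, 1056 with the 2 doses alone, 434 from 5000 bp, 79 by size and 327 to 1072 without 1 library. Host genes with higher RNA at 2 µM numbered 176 with total counts only, 187 with no filter, 67 with the 2 doses alone and 47 to 193 without 1 library; those with lower RNA numbered 41, 234, 27 and 15 to 163, and 182 by DESeq2. The cause was not tested.

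The replicate block gave 1501 higher and 533 lower peaks at 2 µM and 3069 and 2811 at 10 µM, and 80 and 137 host genes at 2 µM with the 2 doses alone, a fit added after seeing the data. The ATAC-seq replicate numbers did not pair libraries (r of 0.134, -0.0124 and -0.0539 between 0 and 2 µM). Of 358 calls among the named peaks, 57 were lost under at least 1 alternative. The HS6ST1 peak starting at 128316365 had a log2 of 0.16 at 10 against 0 µM, 0.63 without replicate 1 of 10 µM and -0.48 without replicate 2. Median depths of 36 to 91 counts per peak and 2 libraries at 10 µM limit what small differences could be called.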
